A study of Mus musculus with 12 samples.

Results

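The sites described here were ZFP57 peaks called in the mouse embryonic stem cell line A3 that met no other peak, on the autosomes other than chromosomes 1, 2, 8 and 14. To find them, overlapping peaks of 4 deposited lists (ZFP57 and KAP1 in A3 and in E14) were joined into sites when they shared at least 1 bp, and sites holding an A3 ZFP57 peak alone were kept. This left 715 sites on 15 chromosomes, of 12833 sites in all and of 775 sites with an A3 ZFP57 peak on these chromosomes. A further 638 such A3-only sites lay on chromosomes 1, 2, 8 and 14, and 40 lay on X and Y. The sites were chosen by the presence of a peak in the A3 ZFP57 list and its absence from the other 3, so every comparison below is a description without a test. Over all chromosomes 93.8% of A3 ZFP57 sites met no peak of the other 3 lists, against 92.3% (95% exact interval 90.1 to 94.0%) on the 15 autosomes.

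Chromatin immunoprecipitation and sequencing (ChIP-seq) recovers the DNA that a protein is fixed to. The study covered 12 libraries of wild-type A3 cells, wild-type E14 cells and A3 cells without Zfp57, each with an input and with ZFP57, KAP1 and H3K9me3 precipitates. Both lines used here were wild type, A3 from strain 129X1/SvJ and E14 from strain 129P2/OlaHsd, and both were grown without feeders in serum and leukemia inhibitory factor. The serum content of the medium differed between the lines, and non-essential amino acids were added for A3 alone, so strain, line and medium cannot be told apart. Each list came from 1 library, the labels do not say whether a line was 1 clone, and peak lists hold no expression values against which to check the cell type. The other 8 libraries, including all of the Zfp57-deficient cells, were not analysed here, so no site was compared with its state without ZFP57.

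ZFP57 belongs to the KRAB zinc finger family. It is known to bind a short CpG-containing motif when that motif is methylated, and to keep DNA methylation on imprinted control regions through early development. KAP1 (TRIM28) is the corepressor that the KRAB domain recruits, and KAP1 in turn brings the histone methyltransferase SETDB1, which deposits H3K9me3. At imprinted control regions ZFP57 and KAP1 are therefore known to be found together. The sites below are the A3 ZFP57 calls that met neither a KAP1 peak of either line nor an E14 ZFP57 peak. Positions are on build mm9, whose sequence and gene models were not used here, so neither the gene at a site nor its sequence is given.

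Most A3-only sites were narrow. The lists are built from windows of 150 bp, and no peak was narrower than 300 bp. Of the 715 sites, 506 had exactly this smallest width (70.8%, 67.3 to 74.1%), where 56.7% of A3-only sites of all chromosomes did. Another 140 were 450 bp wide, 33 were 600 bp wide and 36 were 750 bp or more. Together the 715 sites covered 0.290 Mb.

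Narrow calls took a smaller part of the neighbouring sets. On chromosomes 1, 2, 8 and 14, 274 of the 638 A3-only sites were 300 bp wide (42.9%, 39.1 to 46.9%) and the median width was 450 bp. Among the 291 ZFP57 sites called in E14 alone on the 15 autosomes, 169 were (58.1%, 52.2 to 63.8%). The A3 ZFP57 peaks of these autosomes that did meet another list were wider, with a median of 600 bp and 7 of 60 at 300 bp (11.7%, 4.82 to 22.6%). A wide peak has more room to meet another peak, so this last contrast is in part built into the choice of sites.

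**Figure D1:**
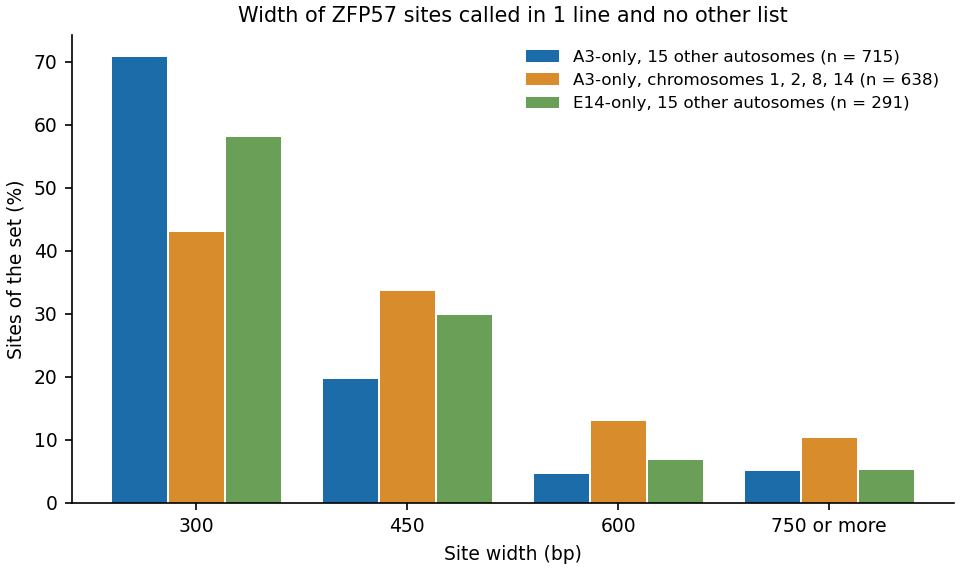
Share of sites (%) in each width class (bp) for A3-only ZFP57 sites of the 15 autosomes, A3-only sites of chromosomes 1, 2, 8 and 14, and E14-only sites of the 15 autosomes; bars are percentages of each set. The 300 bp class holds 70.8% of the first set, 42.9% of the second and 58.1% of the third.

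Broad A3-only sites were few and lay on 6 of the 15 chromosomes. Only 13 sites reached 1050 bp (1.82%, against 2.23% of A3-only sites of all chromosomes), 5 of them on chromosome 12, 4 on chromosome 4 and 1 each on chromosomes 3, 7, 9 and 19. The widest, 6750 bp, lay on chromosome 4 at 145146451 to 145153200. A second site of 3300 bp followed 28.65 kb away at 145181851 to 145185150, and another of 3900 bp lay at 145705351 to 145709250. The nearest A3 KAP1 peaks lay 37.2 kb, 72.6 kb and 12.75 kb away from these 3 in that order. The last on chromosome 4 spanned 2250 bp at 3016501 to 3018750, and its nearest A3 KAP1 peak was 264 kb away.

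On chromosome 12 the broadest site spanned 5850 bp at 94123801 to 94129650. The other 4 lay in the distal part of the chromosome. They spanned 3300 bp at 117044401 to 117047700, 1650 bp at 116835151 to 116836800, 1200 bp at 115782901 to 115784100 and 1050 bp at 114887851 to 114888900. Their nearest A3 KAP1 peaks were 345 kb, 136 kb, 18.75 kb and 509 kb away, so 3 of these 4 lay farther from A3 KAP1 than any of the first 3 broad sites of chromosome 4.

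Each of the remaining 4 broad sites was the one such site of its chromosome. The one on chromosome 9, 3900 bp at 3003751 to 3007650, began 450 bp after a peak at 2999851 to 3003300. That peak had identical bounds in all 4 lists, A3 ZFP57 included. Further A3 ZFP57 peaks that met E14 ZFP57 followed at 3011101 to 3013500, 3021601 to 3030600 and 3034501 to 3038400. The chromosome 3 site, 1200 bp at 15662551 to 15663750, ended 1200 bp before an E14 ZFP57 peak of 1050 bp. Chromosome 7 had a site of 1050 bp at 50164501 to 50165550, and chromosome 19 one of 1050 bp at 3209851 to 3210900. Elsewhere the widest site of a chromosome was smaller. On chromosome 10 it spanned 900 bp, at 57156451 to 57157350. Chromosome 13 had 2 sites of 900 bp, the first at 12853801 to 12854700. The largest width was 750 bp on chromosomes 6, 17 and 18, reached by 2, 3 and 1 sites, of which the first lay at 42974101 to 42974850, 13258201 to 13258950 and 85885351 to 85886100. The named chromosome 6 site was also the A3-only site farthest from any A3 KAP1 peak, at 2475 kb. On chromosome 5 the largest width was 600 bp, reached by 5 sites of which the first lay at 32837701 to 32838300, and on chromosomes 11, 15 and 16 no site exceeded 450 bp.

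Most A3-only sites had no KAP1 peak of the same line within 100 kb. The median distance to the nearest A3 KAP1 peak, edge to edge, was 137 kb, with quartiles of 51.4 kb and 349 kb. An A3 KAP1 peak lay within 1 kb of 12 sites (1.68%) and within 10 kb of 54 (7.55%, 5.72 to 9.74%), where 6.32% of A3-only sites of all chromosomes had one within 10 kb. Within 100 kb the number was 272 (38.0%), and within 1 Mb it was 691 (96.6%). For scale, the median distance from an A3 KAP1 peak to its nearest neighbour on either side was 42.6 kb, over 7579 peaks on these chromosomes. Distances from random positions were not taken, so whether the sites lay farther from KAP1 than such positions was not tested.

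The same distance was taken in the comparison sets. Of the E14-only ZFP57 sites on the same autosomes, 23 of 291 had an A3 KAP1 peak within 10 kb (7.90%, 5.08 to 11.6%), and their median distance was 96.0 kb. On chromosomes 1, 2, 8 and 14 it was 29 of 638 A3-only sites (4.55%, 3.06 to 6.46%), with a median of 158 kb. The 10 kb share of the 715 sites thus lies inside the interval of the E14-only sites, which were called in the other line. It lies above the interval of the other A3-only sites, but its own interval (5.72 to 9.74%) overlaps that one. A difference was not tested.

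KAP1 and ZFP57 peaks of E14 were farther away; their lists are shorter, and distance moves with the length of a list. An E14 KAP1 peak, of 967 on these chromosomes, lay within 10 kb of 17 sites (2.38%, 1.39 to 3.78%), where 2.44% of A3-only sites of all chromosomes had one, and the median distance was 690 kb. An E14 ZFP57 peak, of 429, lay within 10 kb of 5 sites (0.699%, 0.227 to 1.62%), where 0.718% did over all chromosomes, and the median distance was 1432 kb. Within 100 kb there were 41 sites (5.73%) with an E14 ZFP57 peak. Allowing a distance of 1 kb would have paired 1 of the 715 A3-only sites with an E14 ZFP57 peak. The lists hold no scores, so E14 signal below the calling threshold at these sites could not be seen.

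**Figure D2:**
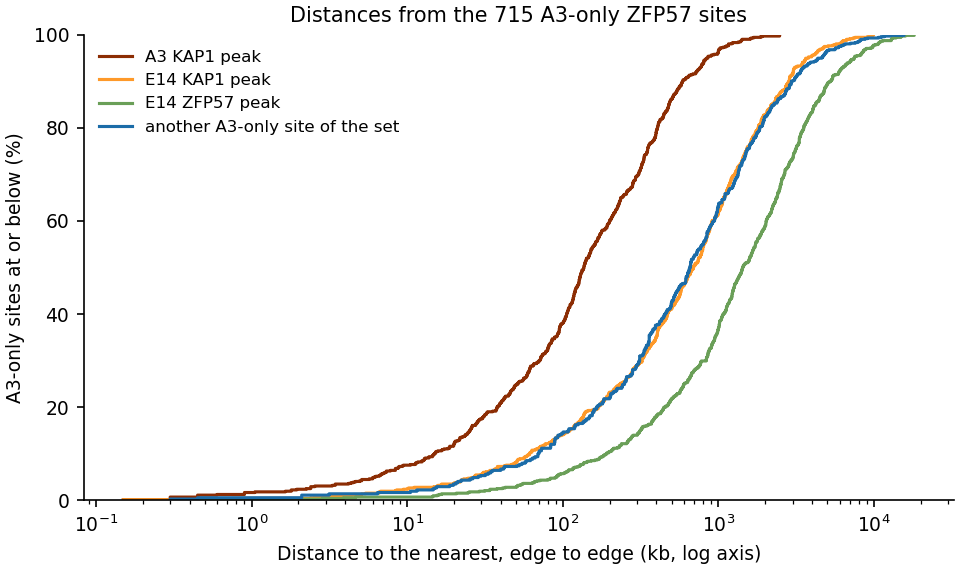
Cumulative share (%) of the 715 A3-only ZFP57 sites against the distance (kb, log axis) from each site's edge to the nearest A3 KAP1 peak, E14 KAP1 peak, E14 ZFP57 peak and other A3-only site. The A3 KAP1 curve reaches 38.0% at 100 kb and the E14 ZFP57 curve 5.73%, while the E14 KAP1 and A3-only curves run together.

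The nearest peak of the other 3 lists was an A3 KAP1 peak for 545 sites (76.2%), an E14 KAP1 peak for 90 and an E14 ZFP57 peak for 40, with ties at the other 40. For 391 sites (54.7%, 51.0 to 58.4%) there was no peak of the other 3 lists within 100 kb. A group of 61 sites (8.53%) had one within 10 kb. Of the 54 sites with A3 KAP1 within 10 kb, 13 also had E14 KAP1 within 10 kb. The A3 KAP1 peak nearest to each of the 54 had a median width of 450 bp, against 600 bp for the whole list. It overlapped an E14 KAP1 peak in 11 cases, an E14 ZFP57 peak in 1 and an A3 ZFP57 peak in 1.

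The sites closest to KAP1 show what lay just inside the rule. The smallest distance was 150 bp, a single window, at 74524801 to 74525100 on chromosome 18. There both lines had a KAP1 peak at 74524201 to 74524650, and an E14 ZFP57 peak lay 3900 bp away at 74520001 to 74520900. Another 4 sites lay 300 bp from A3 KAP1, at 114482851 to 114483150 on chromosome 5, 88537351 to 88537650 on chromosome 9, 22776451 to 22777200 on chromosome 12 and 39829801 to 39830250 on chromosome 17. E14 KAP1 was 8.55 kb away from the chromosome 9 site and 33.75 kb or more away from the others, so the KAP1 peak beside them was a call of A3.

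The sites nearest to E14 KAP1, after the chromosome 18 and chromosome 9 sites already named, were 95999701 to 96000150 on chromosome 9, 750 bp away, and 3433051 to 3433950 and 3675301 to 3676200 on chromosome 4, 2400 bp and 2550 bp away. At each of these 3, an A3 KAP1 peak lay at the same place as the E14 one or overlapped it. The sites nearest to E14 ZFP57, after those named, were 116302351 to 116302950 on chromosome 12, 2850 bp away, and 27611701 to 27612300 on chromosome 7, 4650 bp away. Of the A3 ZFP57 peaks just outside the rule, the one at 61027651 to 61027950 on chromosome 13 met an A3 KAP1 peak over 150 bp, and 7 others met a peak of another list over 300 bp. The first of these 7 lay at 49348801 to 49349100 and 96050551 to 96050850 on chromosome 4, 67613401 to 67613700 on chromosome 6 and 115302751 to 115303050 on chromosome 11, each 300 bp wide and wholly inside a peak of another list.

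Wider A3-only sites had shorter median distances to KAP1. The median distance to A3 KAP1 was 167 kb for sites of 300 bp, 102 kb for those of 450 bp, 101 kb for those of 600 bp and 60.45 kb for those of 750 bp or more. The share within 10 kb was 27 of 506 at 300 bp (5.34%, 3.55 to 7.67%) and 17 of 140 at 450 bp (12.1%, 7.24 to 18.7%). It was 4 of 33 at 600 bp (12.1%, 3.40 to 28.2%) and 6 of 36 at 750 bp or more (16.7%, 6.37 to 32.8%). The intervals of all 4 classes overlap one another. The median distance to E14 KAP1 went from 780 kb at 300 bp to 103 kb at 750 bp or more, and that to E14 ZFP57 from 1660 kb to 652 kb.

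The same measures were taken in the comparison sets. On chromosomes 1, 2, 8 and 14 the median distance to A3 KAP1 also went down with width, from 189 kb to 96.45 kb, and the share within 10 kb was 4.74% at 300 bp, 3.26% at 450 bp, 4.82% at 600 bp and 7.58% (5 of 66, 2.51 to 16.8%) at 750 bp or more. The E14-only sites had 7.10% at 300 bp, 8.05% at 450 bp, 15.0% (3 of 20, 3.21 to 37.9%) at 600 bp and 6.67% (1 of 15, 0.169 to 31.9%) at 750 bp or more. Their median distances in that order were 98.7 kb, 91.5 kb, 60.2 kb and 115 kb. The intervals of the 3 sets overlap at 750 bp or more, and a difference between the sets was not tested.

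**Figure D3:**
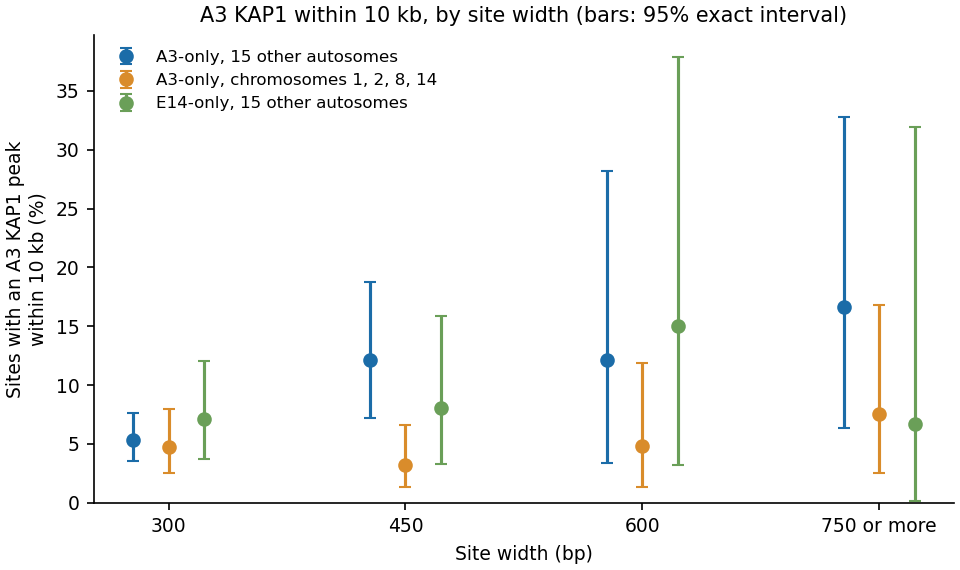
Share of sites (%) with an A3 KAP1 peak within 10 kb by site width (bp), for the A3-only sites of the 15 autosomes, those of chromosomes 1, 2, 8 and 14 and the E14-only sites; points are shares and bars 95% exact intervals. The first set stands at 5.34% for 300 bp and 16.7% for 750 bp or more, with intervals that widen as the classes thin.

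Most sites had no fellow within 100 kb. The median distance from a site to its nearest fellow was 656 kb, with quartiles of 249 kb and 1515 kb. It was 254 kb among the A3-only sites of chromosomes 1, 2, 8 and 14 and 1744.5 kb among the E14-only sites, sets of other densities (3.90 sites per 10 Mb here, 10.0 and 1.59 there). Another A3-only site lay within 100 kb of 103 sites (14.4%, 11.9 to 17.2%) and within 10 kb of 12. These 103 formed 44 pairs and 5 trios, with no longer run.

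The closest pairs were 300 bp apart on chromosome 5, at 15112651 to 15112950 and 15113251 to 15113700, and 450 bp apart on chromosome 18, at 67234501 to 67234950 and 67235401 to 67236000. A pair on chromosome 13, at 74716201 to 74716800 and 74718901 to 74719200, and a pair on chromosome 19, at 3209851 to 3210900 and 3213001 to 3213450, were 2100 bp apart. The next pair, on chromosome 13 at 13350901 to 13351650 and 13354801 to 13355250, was 3150 bp apart and belonged to a trio within 19.95 kb. The calls in these pairs were 300 to 1050 bp wide.

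Sites were counted in 1 Mb windows with fixed edges at whole megabases, and no such window held more than 4 sites. That number was reached by 6 windows, at 92 to 93 Mb and 153 to 154 Mb on chromosome 3, 145 to 146 Mb on chromosome 4, 105 to 106 Mb on chromosome 5, 27 to 28 Mb on chromosome 7 and 9 to 10 Mb on chromosome 19. A3 KAP1 had 1, 6, 11, 6, 14 and 14 peaks in these windows in the same order. In the chromosome 4, 5 and 7 windows none of the 4 sites was 300 bp wide. Of the other occupied windows, 26 held 3 sites, 109 held 2 and 395 held 1. Fixed edges can split a group of sites. On chromosome 3, sites at 91584151 to 91584450 and 91653601 to 91654200 fell before the 92 Mb edge. They lay within 1 Mb of all 4 sites of the window after it, so a window placed elsewhere can hold more than 4.

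Counts by chromosome ran from 26 on chromosome 19 to 89 on chromosome 3. Chromosome 3 had the highest density, 5.60 sites per 10 Mb, followed by chromosome 13 (4.99) and chromosome 10 (4.78). Chromosomes 6 (2.21) and 11 (2.39) had the lowest. On chromosome 3, 89 of 89 A3 ZFP57 peaks were A3-only, where 92.3% were on the 15 autosomes and 93.8% over all chromosomes. On chromosome 19 it was 26 of 26, on chromosome 12 it was 50 of 59 and on chromosome 9 it was 46 of 54. Whether this share differs between chromosomes was not tested. Counts followed chromosome span in part (Spearman's rho 0.665 over 15 chromosomes, a description). Against the density of A3 KAP1 peaks, site density gave a rho of -0.257. Chromosome 17, with the densest A3 KAP1 peaks at 56.5 per 10 Mb, had 3.78 sites per 10 Mb, and chromosome 11, with 53.8, had 2.39.

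Against E14, chromosome 7 had 61 A3-only and 13 E14-only sites, a ratio of 4.69, and chromosome 12 had 50 and 15. Chromosome 6 had 33 and 30, a ratio of 1.10, and chromosome 11 had 29 and 21. The A3 and E14 lists differ in length, so a ratio above 1 is no sign of more binding. The share of 300 bp sites also varied, from 13 of 26 on chromosome 19 to 37 of 39 on chromosome 16.

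**Figure D4:**
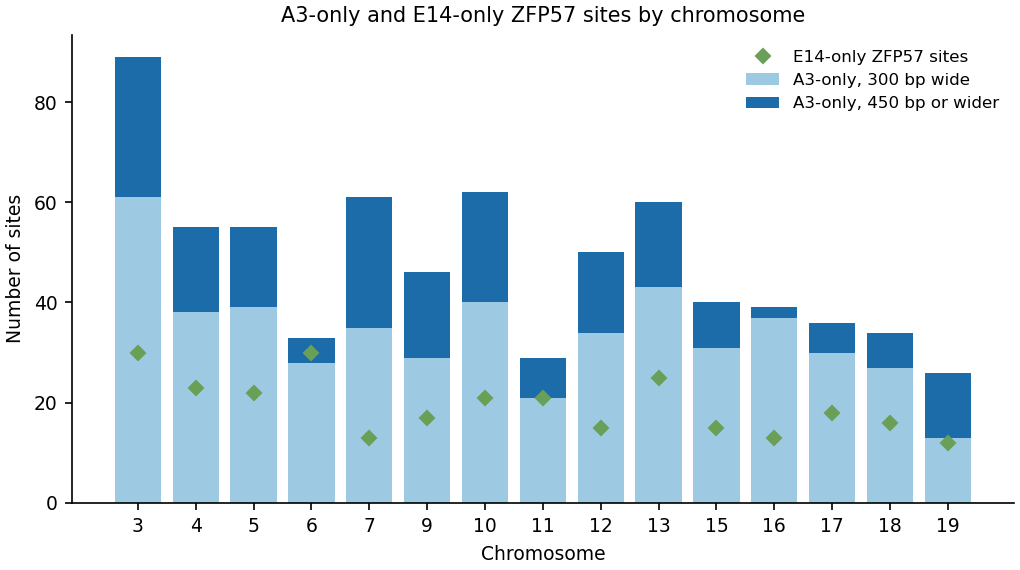
Number of A3-only ZFP57 sites on each of the 15 autosomes, with sites of 300 bp in light and wider ones in dark blue, and the number of E14-only ZFP57 sites as diamonds. Chromosome 3 holds 89 A3-only sites and chromosome 19 holds 26, while chromosome 6 has 33 against 30 E14-only sites.

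No stretch of the chromosomes held a large part of the sites. Each chromosome was divided into 5 equal parts up to its last peak in any list, and the parts from the start held 148, 131, 151, 149 and 136 sites, or 18.3 to 21.1%. Of the A3 KAP1 peaks on the same chromosomes, 16.8% lay in the middle part and 25.6% in the last. Sites of 750 bp or more were most numerous at both ends, with 13, 6, 4, 4 and 9 in the parts from the start. This was not particular to them: the E14-only sites of that width on these autosomes numbered 4, 3, 1, 1 and 6. Single chromosomes were less even: chromosome 7 had 44 of its 61 sites in the parts 3 and 4, and chromosome 6 had 24 of 33 in the first and last.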

How the data were processed

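The deposited files give the positions of the authors' peaks, a list for each library, without scores, read counts or p-values, so peak strength, the depth of the libraries and their precision are unknown. Build mm9 and the tools bedtools 2.14.3-1, SAMtools 0.1.18, Bowtie 0.12.7 and CASAVA 1.8.2 come from the submitters' processing notes. How peaks were called, at which threshold and with which control is not given in the sources used here. Groups were taken from sample titles. From each start 1 was subtracted, and overlapping or touching peaks of a list were merged, which removed 1 A3 ZFP57, 53 A3 KAP1, 1 E14 ZFP57 and 3 E14 KAP1 peaks. Distances run edge to edge to the nearest peak on the chromosome. Intervals of shares are 95% Clopper-Pearson (exact) and hold counting error alone; peaks are not replicates, and with 1 library per group no test was run. The members and lists were chosen with earlier results of these data known. Named sites were the 12 widest, the widest of each chromosome, the 5 nearest each other list and the 5 closest pairs. Also named were the densest fixed 1 Mb windows (6 tied) and, of the peaks just outside the rule, the smallest overlap. Planned checks of gene context and motif were not run. The overlap and distance code (scipy 1.17.1, pandas 2.3.3, numpy 2.4.6, matplotlib 3.10.9, Python 3.11.15) was tested on simulated data and gave the sites and distances of bedtools 2.31.1.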

Additional observations from a re-analysis of the deposited data

How the results depend on the processing

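Each of the 8 summary values (number of sites, median width, share at the minimum width, median spacing, shares within 10 kb of A3 KAP1, E14 KAP1 and E14 ZFP57, share with a fellow within 100 kb) was recomputed under 6 alternatives, and 41 of the 48 recomputed values stayed within the interval of the reported one, or for the count within 1.5 times. Requiring a reciprocal overlap of 50% and keeping touching peaks apart left 715 sites, counting peaks within 1 kb as shared left 703, and leaving out peaks wider than 1500 bp left 707. Keeping A3 ZFP57 peaks of at least 450 bp, which removes the narrowest class by construction, left 209 sites with a median width of 450 bp and 0% at 300 bp. Their median spacing was 2093 kb, 12.9% had A3 KAP1 within 10 kb, and 1.91% had E14 ZFP57 within 10 kb. Using starts as deposited gave a median width of 299 bp, the 1 bp of the convention. No paired analysis was possible because each group has 1 library and no test was run. Depth is unknown, so how many narrow A3-only calls a deeper library or another threshold would keep was not tested.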

Other observations

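The places below were noticed after the sites had been mapped and are given as values. Broad A3-only sites, of at least 1050 bp, that followed each other within 2 Mb marked a stretch of 2.16 Mb on chromosome 12, from 114887851 to 117047700. It held 7 A3-only sites of 450 to 3300 bp, 4 of them at least 750 bp wide. The other lists had 2 A3 KAP1, 4 E14 ZFP57 and 7 E14 KAP1 peaks there, so more KAP1 peaks came from E14, although the A3 KAP1 list is 7.72 times as long. The like stretch on chromosome 4, from 145146451 to 145709250, held 4 A3-only sites with 8 A3 KAP1, 0 E14 ZFP57 and 6 E14 KAP1 peaks. Its bounds are the edges of A3-only sites, and E14 ZFP57 peaks lay on both sides of it. They included 145038301 to 145044600 and 145090651 to 145090950 (55.5 kb away) before it, and 146017351 to 146021550 (308 kb away) after it.

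From 2.9 to 4 Mb of the 15 autosomes lay 10 A3-only sites, on 6 chromosomes. Their median width was 750 bp, against 300 bp over all 715 sites, and 5 of the 10 were at least 750 bp wide. The same stretches held 16 A3 ZFP57 peaks in all, these 10 included, with 9 E14 ZFP57, 128 A3 KAP1 and 32 E14 KAP1 peaks.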
